A study of Mus musculus with 16 samples.

Results

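The proteasome genes were examined at their promoters in mouse tumours driven by EWSR1::ATF1 (EA1), the fusion oncoprotein of clear cell sarcoma. Members were all protein-coding genes of GENCODE vM21 (build mm10) whose symbol begins with Psma, Psmb, Psmc, Psmd, Psme, Psmf or Psmg followed by a digit, which gave 50 of 21938 protein-coding genes. The rule used names and no measured value, but the group was chosen with earlier results of these data known. It takes in 49 genes for subunits, chaperones and regulators of the proteasome and Psmc3ip, a meiotic recombination factor that shares the prefix.

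Sequencing of immunoprecipitated chromatin (ChIP-seq) was carried out on whole tumours with antibodies against V5 (4 samples by the labels), phosphorylated RNA polymerase II (RNAPOL2, 4 samples) and acetylated lysine 27 of histone H3 (H3K27ac, 4 samples), with 4 input samples. Every tumour, those that gave the input included, carried the genotype EWSR1::ATF1. Per the methods of the study this was human type 1 EWSR1::ATF1 with a V5 tag, expressed from the Rosa26 promoter once TATCre, a cell-permeable Cre recombinase, had been injected into the hindlimb of mice of a mixed 129/SvJ and C57Bl/6 background. The study describes injection at 4 weeks of age, and the labels give no age at collection. There was no group without the fusion, so presence and scores of peaks were compared between genes and not between conditions. The V5 antibody is directed at the tag of the fusion, and the labels name no V5 sample from untagged tumours. RNAPOL2 is taken to mark transcribed genes and H3K27ac to mark active promoters and enhancers.

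The 26S proteasome degrades proteins that carry ubiquitin chains. Its 20S core is a stack of rings in which the outer alpha subunits gate the entry and some of the inner beta subunits cut peptides, and its 19S particle recognises, unfolds and feeds in the substrate with a ring of ATPases and a set of non-ATPase subunits. Most subunits are needed in every cell, and their genes are known to be raised together when proteasome activity falls, through NFE2L1 bound to antioxidant response elements. ATF1, which gives the fusion its DNA-binding domain, belongs to the ATF/CREB family that recognises the palindrome TGACGTCA.

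V5 peaks, taken to stand for EA1, were found at the promoters of 11 of the 50 genes (22%, beside 16.6% of all protein-coding genes and 30.4% of those with RNAPOL2 and H3K27ac). They were Psmb2, Psme3, Psmb1, Psma7, Psmb9, Psmb8, Psme4, Psmd3, Psmd5, Psmg1 and Psma1, in the order of their V5 scores, and the score of Psmb2 was 4762, while the other 10 lay between 67 and 829. RNAPOL2 and H3K27ac were present at almost all members, and all 11 genes with V5 had both.

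The sequence under the V5 peaks shows how these promoters differ, and 7 stretches are given, chosen for the classes of match and for the range of scores. They were read from mm10 on the strand of the gene, 5′ to 3′. Capitals mark TGACGTCA in the first pair, another sequence of the form TGANNTCA in Psmd3, and in the others TGACG, the first 5 bases of the palindrome, or its reverse complement CGTCA, at the occurrence nearest to the middle of the peak.
Psmb2 (chr4:126677577-126677644, plus strand): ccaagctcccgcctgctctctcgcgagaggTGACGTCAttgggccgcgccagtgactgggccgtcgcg
Psmb8 (chr17:34197631-34197698, plus strand): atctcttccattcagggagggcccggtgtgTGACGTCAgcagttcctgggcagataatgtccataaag
Psmd3 (chr11:98682224-98682291, plus strand): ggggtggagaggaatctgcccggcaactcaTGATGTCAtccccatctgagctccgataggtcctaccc
Psme3 (chr11:101315917-101315981, plus strand): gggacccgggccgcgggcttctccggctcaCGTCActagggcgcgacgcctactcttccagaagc
Psmd5 (chr2:34871227-34871291, minus strand): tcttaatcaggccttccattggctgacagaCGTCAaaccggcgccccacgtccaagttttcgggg
Psmg1 (chr16:95991032-95991096, minus strand): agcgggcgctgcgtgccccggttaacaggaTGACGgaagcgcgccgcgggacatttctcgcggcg
Psma1 (chr7:114276242-114276306, minus strand): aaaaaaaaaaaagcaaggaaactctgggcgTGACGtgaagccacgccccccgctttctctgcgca

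The whole palindrome was found only in the peaks of Psmb2 and Psmb8 among the 11. In Psmb2 its centre lay 30 bp from the middle of the peak, at chr4:126677607-126677614. This is 20 bp upstream of the transcription start site (TSS) nearest to the peak, 1 of 3 annotated for the gene. In Psmb8 it lay 21 bp from the middle, at chr17:34197661-34197668. This is 57 bp upstream of the TSS nearest to the peak, 1 of 6 annotated for the gene. Both positions fall outside annotated exons and introns. The Psmb2 palindrome shares its last base with ATTGG, the reverse complement of a CCAAT box.

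The measurements are 3 deposited peak lists, 1 for each antibody, with 10665 V5, 20375 RNAPOL2 and 27552 H3K27ac peaks. A peak is an interval with a whole-number score set by the authors. The study speaks of significance for its V5 scores but gives no unit, so the values were set against each other within 1 list at a time. The V5 list is also smaller than the total V5 set of the study, so a missing V5 peak means absence from this list and may not hold in the total set. The lists hold no values per tumour and not the depth that each reached, and no test between tumours could be made. Shares are given with Wilson 95% intervals, which cover counting error over genes only. A gene was called as having a promoter peak when a peak overlapped, by at least 1 bp, the window of 3 kb on either side of any of its TSSs. In whole tumours, fewer cells with a protein on a promoter and less of it in each cell cannot be told apart.

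The tissue was checked against 27 marker genes in short lists. Of all protein-coding genes, 16.6% had a V5, 53.5% an RNAPOL2 and 58.6% an H3K27ac promoter peak. Of 8 melanocytic genes, which mark the lineage that clear cell sarcoma resembles, 1 had a V5 promoter peak (Dct with a score of 218), 2 had an RNAPOL2 promoter peak (Mitf with a score of 191 and Pmel with 1281) and 3 an H3K27ac peak, and Sox10, Mlana, Tyr and Tyrp1 had none in any list. Skeletal muscle markers, which mark the injected tissue, had 0 of 5 in every list. RNAPOL2 peaks were present at 4 of 9 leukocyte markers (Cd68, Spi1, Cd74 and H2-Aa) and H3K27ac peaks at 7, while V5 peaks were present at none of them. RNAPOL2 was also present at 1 of 3 endothelial and 1 of 2 fibroblast markers, and H3K27ac at 3 of 3 and 2 of 2. The part of these cells in the RNAPOL2 and H3K27ac peaks of the proteasome genes was not tested.

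The first question was how often proteasome promoters carry the fusion, compared with other genes. V5 promoter peaks were present at 11 of 50 members, or 22% (12.8 to 35.2), beside a background of 16.6% of all protein-coding genes. RNAPOL2 was present at 47 of 50, or 94% (83.8 to 97.9), beside 53.5% of all protein-coding genes, and H3K27ac at 48 of 50, or 96% (86.5 to 98.9), beside 58.6%. The intervals for RNAPOL2 and H3K27ac lay above the background, whereas the interval for V5 contained it. With the upper 50% of peaks by score alone, V5 was present at 16% of the members (8.34 to 28.5), beside 7.30% of all protein-coding genes, which lies outside that interval.

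A closer background is given by the 11443 protein-coding genes with promoter peaks of both RNAPOL2 and H3K27ac (52.2% of all), since V5 was rare at promoters without them. Of the 47 members with both, 11 had V5, or 23.4% (13.6 to 37.2), beside 30.4% of those genes. The share of the members lay below that background, which was still within its interval. A difference between proteasome promoters and other promoters with both peaks was thus not detectable at this number of genes. With the upper 50% of peaks by score, 8 of the 46 members with both had V5, or 17.4% (9.09 to 30.7), beside 14.2%, so the members then lay above the background, which was still within the interval. V5, RNAPOL2 and H3K27ac occurred together at 22% of the members and at 15.9% of all protein-coding genes.

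**Figure D1:**
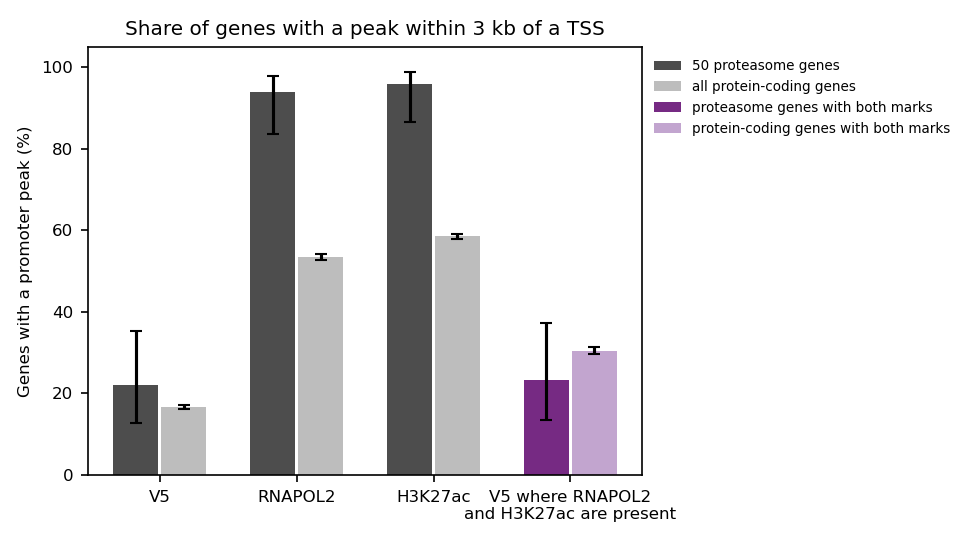
Share of genes, in percent, with a peak within 3 kb of a TSS in each deposited list, for the 50 proteasome genes and all 21938 protein-coding genes, and the share with V5 among genes that have both other peaks. Error bars are Wilson 95% intervals. The proteasome bars stand at 94% and 96% for RNAPOL2 and H3K27ac, well above the grey bars, while for V5 both pairs have overlapping error bars.

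The alpha ring of the 20S core had V5 at 2 of 8 genes, or 25% (7.15 to 59.1), an interval that holds the backgrounds of 16.6% and 30.4%. Psma7 had a V5 peak with a score of 358 and Psma1 one of 67, the lowest among the members. Psma7 codes for a subunit of the alpha ring, and its peak was 1560 bp wide, the widest at any member, with a middle nearer to the TSS of the neighbour Ss18l1. RNAPOL2 scores in this ring were 775 for Psma1, 1552 for Psma2, 2417 for Psma3, 2945 for Psma4, 790 for Psma5, 3855 for Psma6 and 1232 for Psma7. The H3K27ac scores of the same genes ran from 777 (Psma2) to 2085 (Psma7). Psma8, the subunit that replaces Psma7 in spermatocytes, had no promoter peak in any list.

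The constitutive beta ring had V5 at 2 of 7 genes, or 28.6% (8.22 to 64.1), again with both backgrounds in the interval. The V5 peaks had scores of 4762 at Psmb2 and 469 at Psmb1, both of them subunits without a catalytic site. The Psmb2 peak ranked 81 among the 10665 V5 peaks and lay at percentile 99.4 among protein-coding genes with a V5 promoter peak. A percentile here is the share of protein-coding genes with a peak in that list whose highest promoter peak scored the same or lower. The RNAPOL2 score of Psmb2 was 983 (percentile 52.9) and its H3K27ac score 1104 (59.8). Among protein-coding genes with a promoter peak, the highest V5 promoter of the proteasome thus stood near the middle for both. Among all peaks, the Psmb2 peak ranked 4893 of 20375 for RNAPOL2 and 4702 of 27552 for H3K27ac. The 3 catalytic subunits had no V5 promoter peak. Psmb5, the chymotrypsin-like subunit, had scores of 564 for RNAPOL2 and 630 for H3K27ac. Psmb6, the caspase-like subunit, had 1796 and 450, and Psmb7, the trypsin-like subunit, 701 and 822. The highest peaks in the window of Psmb3 (851 for RNAPOL2 and 1606 for H3K27ac) lay at its neighbour Pcgf2, and the peaks over the TSS of Psmb3 scored 846 and 524.

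V5 was present at 2 of the 4 inducible or tissue-specific beta subunits, which replace catalytic subunits in particular settings. The Wilson interval of this share (15% to 85%) holds both backgrounds. Psmb8 had a score of 282 and Psmb9 one of 317. Both are immunoproteasome subunits that interferon gamma induces, and they lie close together in the major histocompatibility complex with TSSs 9957 bp apart, but their V5 peaks were separate. The Psmb9 peak covered the shared promoter of Psmb9 and Tap1, a subunit of the peptide transporter for antigen presentation, and its middle was nearer to Tap1. RNAPOL2 at Psmb8 was low, with a score of 356 (percentile 19.5), and stood at 737 (40.9) at Psmb9 and 959 (52.0) at Psmb10, the third immunoproteasome subunit. H3K27ac scores were 807, 1418 and 1004. Psmb10 had no V5 promoter peak. Psmb11, the subunit of thymic cortical epithelium, had no V5 and no RNAPOL2 peak. The H3K27ac peak counted for it, with a score of 630, is the one over the promoter of Psmb5, which begins 3411 bp away, and it was the single promoter peak that a pair of members shared.

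None of the 6 genes for the 19S ATPases, the ring that unfolds substrates, had V5. The Wilson interval of 0 of 6 reaches 39.03% and holds the backgrounds of 16.6% and 30.4%, so this count does not set them apart. All 6 had RNAPOL2, with scores of 790 for Psmc1, 1150 for Psmc2, 1079 for Psmc3, 626 for Psmc4, 698 for Psmc5 and 1143 for Psmc6. All 6 also had H3K27ac, from 602 at Psmc4 to 2212 at Psmc3. The peaks of Psmc2 with 1150 for RNAPOL2 and 961 for H3K27ac lay downstream, 1078 bp and 878 bp from its nearest TSS, and the peaks over that TSS, nearer to its neighbour Dnajc2, scored 344 and 273. V5 peaks lay 9224 bp from a TSS of Psmc1 (score 142), 11.9 kb from Psmc3 (537) and 16.3 kb from Psmc5 (362), the latter pair nearer to Slc39a13 and Smarcd2. The distances were 48.1 kb for Psmc6, 119.4 kb for Psmc4 and 256.2 kb for Psmc2.

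The non-ATPase subunits had V5 at 1 of 11 genes, or 9.09% (1.62 to 37.7), an interval that holds both backgrounds. This was Psmd3, a subunit of the 19S lid, with a V5 score of 254. Its RNAPOL2 score of 2900 lay at percentile 91.3 and its H3K27ac score of 1532 at 71.6. RNAPOL2 was present at all 11 genes, with a median score of 1780 and a range from 428 to 2900. The lowest were Psmd13, a lid subunit, with 428, and Psmd14, the deubiquitinase that removes ubiquitin chains from substrates, with 448. H3K27ac ranged from 678 at Psmd8 to 2472 at Psmd11, a lid subunit. Psmd14 and Psmd12 were also the members farthest from any V5 peak, at 810 kb and 690 kb.

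Among the 3 chaperones of 19S assembly, Psmd5 had V5 with a score of 196, and Psmd9 and Psmd10 had none. The interval of 1 of 3 (6.15% to 79.2%) holds both backgrounds. Psmd5 also had a high RNAPOL2 score of 2485 (percentile 88.3). Its V5 peak covered an internal TSS and not the most upstream one, and the window held a TSS of the neighbour Cutal as well. Psmd10, also called gankyrin, was the lowest member in both other lists, with 179 for RNAPOL2 and 203 for H3K27ac. It was the only member on chromosome X. Psmd9 was also among the lowest, with 356 for RNAPOL2, equal to Psmb8, and 372 for H3K27ac.

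The activators and the inhibitor had V5 at 2 of 6 genes, a share whose Wilson interval (9.68% to 70%) holds both backgrounds. Psme3, which codes for the nuclear cap PA28 gamma, had the second highest V5 score, 829 (percentile 83.9). Its RNAPOL2 score was 1382 and its H3K27ac score 546. Psme4, which codes for PA200, a cap linked to the degradation of acetylated histones, had 265 for V5, 3023 for RNAPOL2 and 2048 for H3K27ac. Psme1 and Psme2, the interferon-induced PA28 subunits, had no V5 promoter peak. Their RNAPOL2 scores were 475 and 916, and their H3K27ac scores 870 and 2472, with TSSs 7856 bp apart. Psmf1, the inhibitor PI31, had low scores of 515 and 321. Psme2b, a short gene that resembles Psme2, had no promoter peak in any list.

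Of the 4 chaperones of 20S assembly, Psmg1 had V5, with a score of 84, and the interval of 1 of 4 (4.56% to 69.9%) holds both backgrounds. It combined this low V5 score (percentile 22.1) with the highest RNAPOL2 score of all members, 4018 (96.4). Psmg2, its partner in the same heterodimer, had the highest H3K27ac score, 3616 (95.1), an RNAPOL2 score of 957 and no V5. The middles of both Psmg2 peaks were nearer to the TSS of its neighbour Cep76. Psmg3 had 628 for RNAPOL2 and a low 397 for H3K27ac, and Psmg4 had 959 and 1300. Psmc3ip, which is no proteasome gene, had 887 and 999 and no V5.

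**Figure D2:**
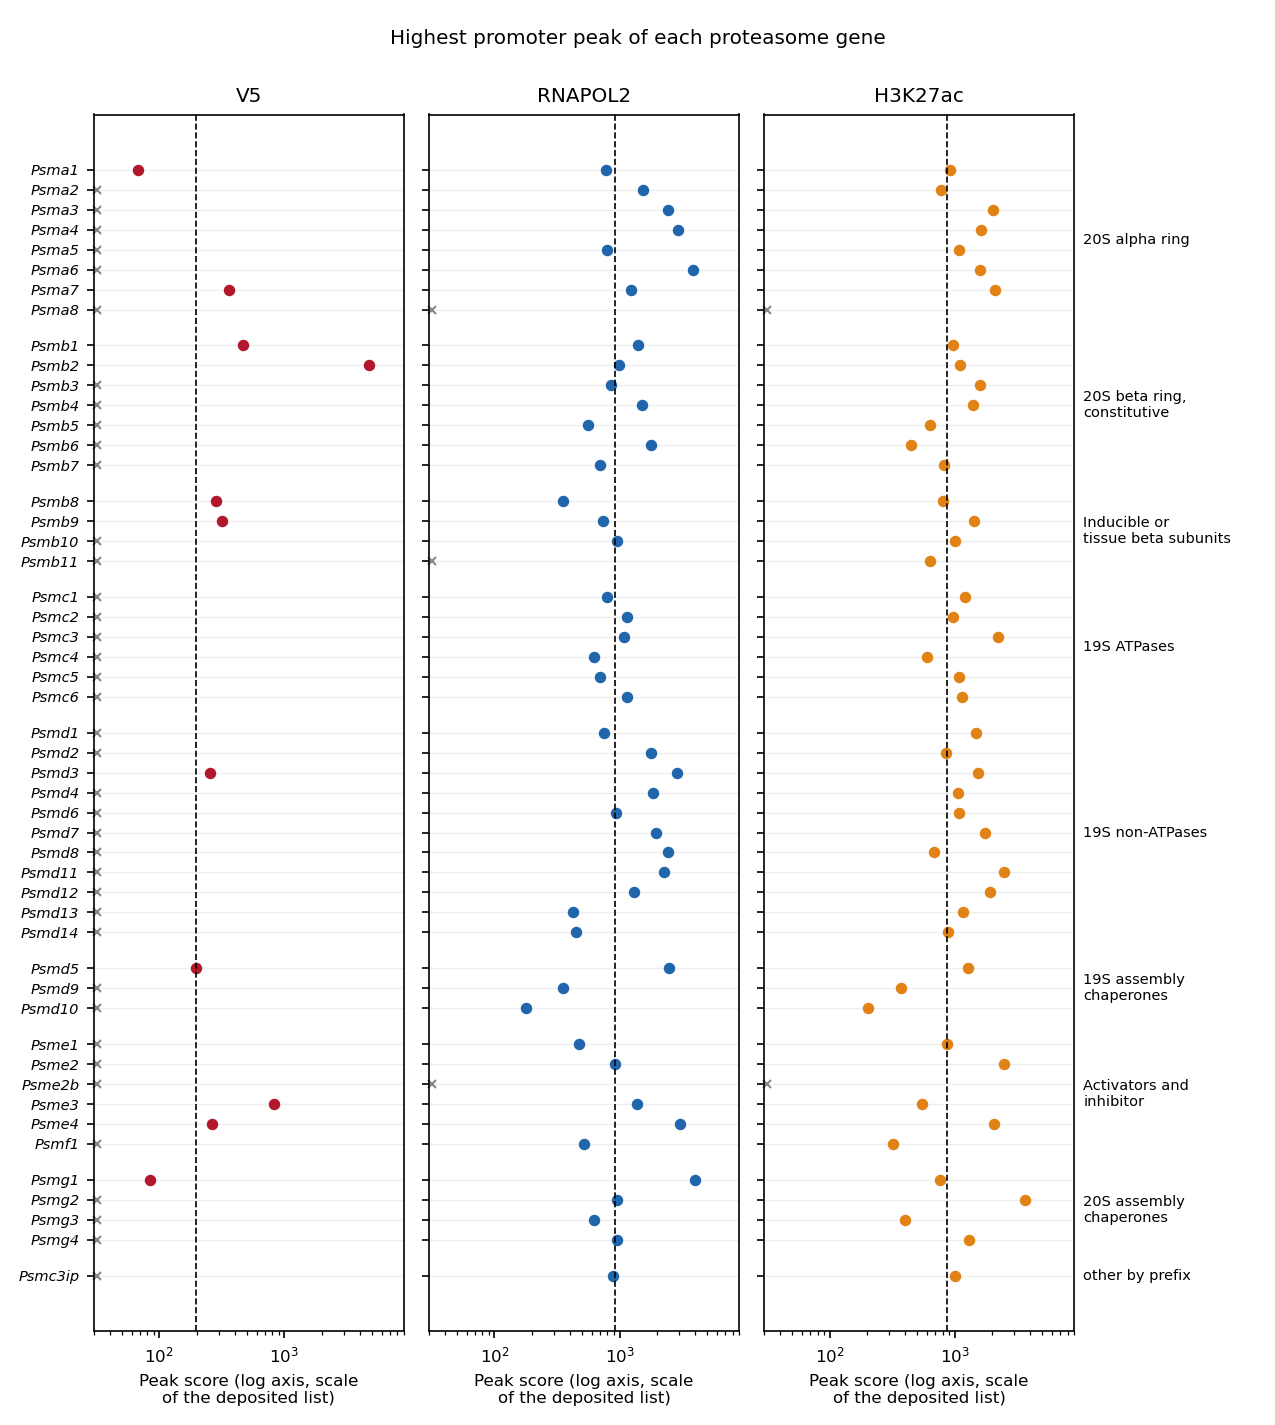
Score of the highest promoter peak of each of the 50 genes in the V5, RNAPOL2 and H3K27ac lists, on log axes whose scale is that of the deposited list, grouped by subcomplex. Dashed lines mark the median of protein-coding genes with a peak in that list (196, 912 and 863) and grey crosses mark genes without a promoter peak. Psmb2 stands alone at 4762 in the V5 panel, and the RNAPOL2 and H3K27ac panels are filled apart from Psma8, Psme2b and, for RNAPOL2, Psmb11.

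The scores of the peaks were then compared with those of other genes. The median V5 score was 282 for the 11 members and 196 for all protein-coding genes with a V5 promoter peak, and 8 of 11 members lay above the latter. The median member lay at percentile 63.1, with a 95% order interval from 22.1 to 83.9. This interval holds the middle of protein-coding genes with a V5 promoter peak. For RNAPOL2 the medians were 959 and 912, with the median member at percentile 52.0 (43.9 to 68.4) and 28 of 47 members above the background median. For H3K27ac they were 1083 and 863, with percentile 59.0 (51.2 to 65.95) and 33 of 48 members above.

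Set against genes with both other peaks, whose median H3K27ac percentile was 55.7, the H3K27ac interval of the members held the background. The interval lay just above the middle of protein-coding genes with an H3K27ac promoter peak. RNAPOL2 and H3K27ac were thus present at more of the members than of all genes. Among protein-coding genes with a promoter peak, the median scores of the members stood near the middle. Percentiles above 90 were reached by 1 of 11 members for V5 (Psmb2), 5 of 47 for RNAPOL2 (Psmg1, Psma6, Psme4, Psma4 and Psmd3) and 1 of 48 for H3K27ac (Psmg2).

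**Figure D3:**
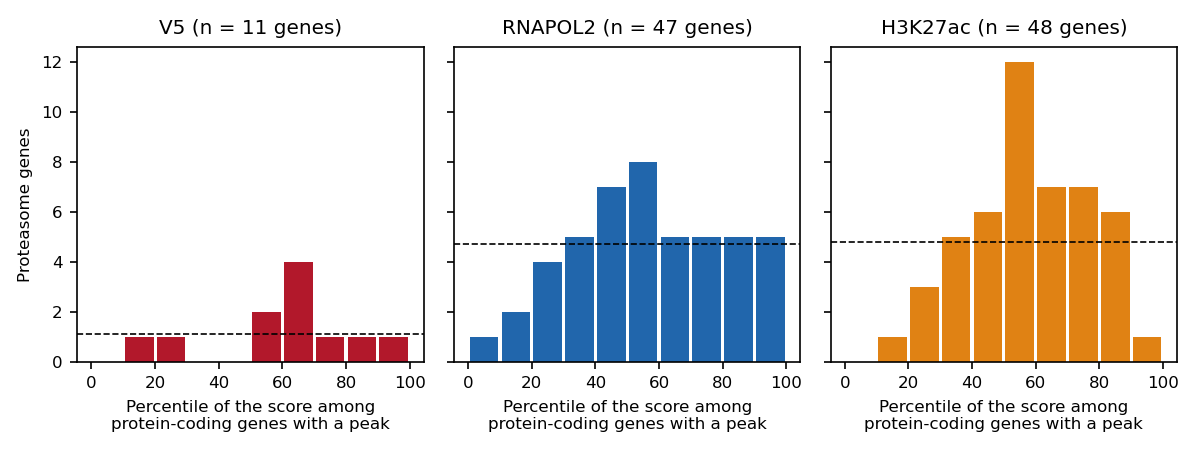
Number of proteasome genes by the percentile of their score among protein-coding genes with a promoter peak, in bins of 10 percentiles, for V5 (11 genes), RNAPOL2 (47) and H3K27ac (48). Dashed lines mark an even spread. RNAPOL2 counts follow the line in the upper bins, and H3K27ac counts gather between percentiles 50 and 60, with 1 gene above 90.

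Peaks at the members were compact. The median width of the highest promoter peak was 710 bp for V5, as in all protein-coding genes, 840 bp for RNAPOL2 beside 1000 bp, and 1350 bp for H3K27ac beside 1610 bp. All 11 V5 peaks covered a TSS, or 100% (74.1 to 100). This interval holds the 81.8% of protein-coding genes with a V5 promoter peak. The 11 middles lay between 10 bp (Psmb2) and 268 bp (Psmd5) from the nearest TSS of the gene.

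The scores of RNAPOL2 and H3K27ac were also set side by side for members with and without V5. The median RNAPOL2 score was 1382 in the 11 with V5 and 950 in the 36 with both other peaks and no V5. The same split of all protein-coding genes gave 1404.5 and 790. For H3K27ac the medians of the same 11 and 36 members were 1104 with V5 and 1083 without, whereas those of all protein-coding genes were 1618 and 792. The RNAPOL2 difference had the direction of the background, and in H3K27ac the members showed nearly equal medians. No test of these differences was made, and the groups overlapped widely, since RNAPOL2 ranged from 356 to 4018 with V5 and from 179 to 3855 without.

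Some proteasome genes lie next to another gene, which bears on whose peak is counted. Another protein-coding gene had a TSS within 3 kb of a TSS of 16 of 50 members, or 32% (20.8 to 45.8), beside 19.3% of all protein-coding genes. Genes without such a neighbour had RNAPOL2 less often, at 46.5% beside 53.5% of all protein-coding genes. The 19.3% is thus not a background matched for RNAPOL2. Among the 11 with V5, those with a neighbour were Psma7 (Ss18l1), Psmb1 (Tbp, the TATA-binding protein), Psmb9 (Tap1) and Psmd5 (Cutal). In the first 3 the middle of the V5 peak was nearer to the neighbour. The RNAPOL2 and H3K27ac peaks of Psmb9, Psmc5, Psmd13 and Psmg2 and the RNAPOL2 peak of Psma2 likewise had middles nearer to a neighbour. At Psmb1 the V5 peak lay on the upstream TSS beside Tbp, where the RNAPOL2 peak scored 730, and the larger RNAPOL2 peak of 1398 lay on a downstream TSS of Psmb1 without V5. Counting each peak for its nearest gene alone left V5 at 8 of 50 members, or 16%, and RNAPOL2 and H3K27ac at 84% and 86%. By the same rule, all protein-coding genes had 14.3%, 47.4% and 52.1%. Among genes with both other peaks by that rule, V5 was at 8 of 42 members, or 19.05% (9.98 to 33.3), beside 28.7%, which lies within the interval.

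**Figure D4:**
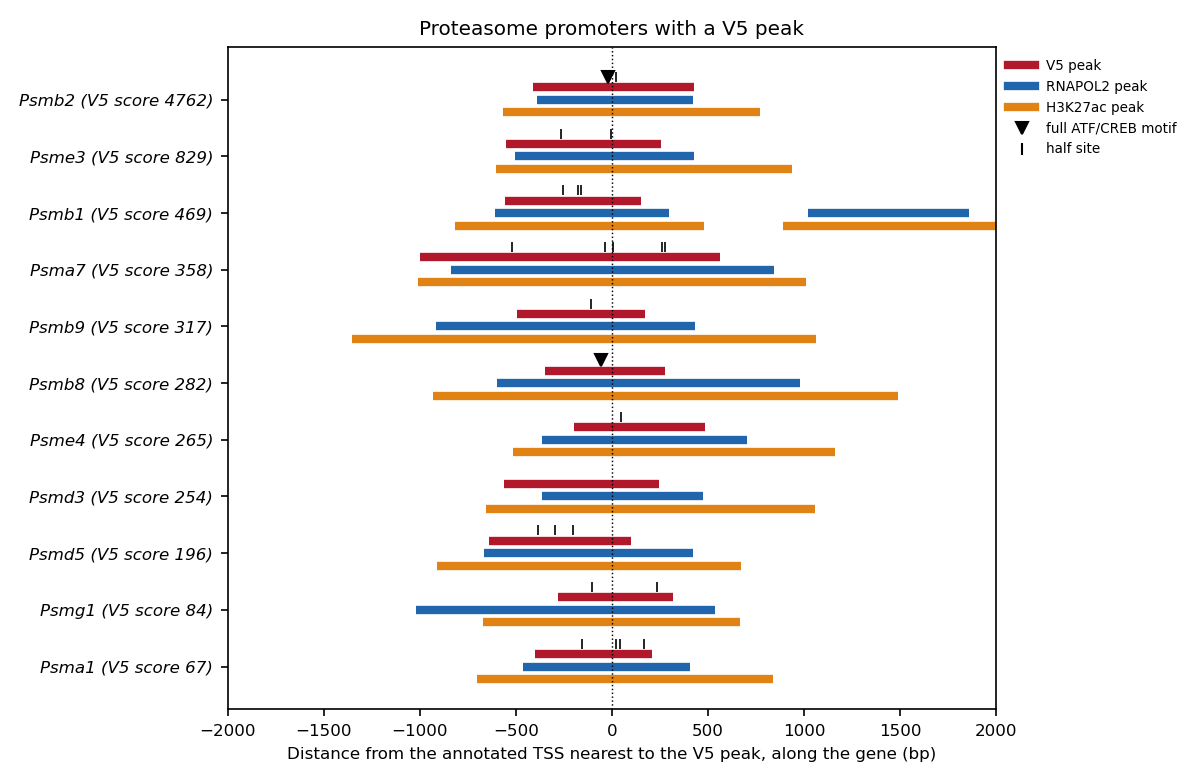
Peaks of the 3 lists around the TSS for the 11 proteasome genes with V5, drawn along the gene in bp from the annotated TSS nearest to the V5 peak, which is the dotted line. Triangles mark the full ATF/CREB palindrome and ticks its first 5 bases, those inside the palindrome lying under the triangle. V5 bars cross the TSS in all 11 genes, and triangles are present at Psmb2 and Psmb8 alone.

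The motifs in the 11 V5 peaks were counted beside the 3595 V5 promoter peaks of all protein-coding genes, on both strands and over the whole peak. TGACGTCA was found in 2 of 11, or 18.2% (5.14 to 47.7), beside 14.0%. Both lay in the central 200 bp, where 9.46% of all V5 promoter peaks held it. TGACG, which is part of TGACGTCA, was found in 10 of 11, all but Psmd3, beside 79.7%. In the central 200 bp it was in 7 of 11, beside 50.7%. Psmd3 alone held other forms of TGANNTCA (22.4% of all V5 promoter peaks), one of which is printed above. None lay in the central 200 bp, where 8.04% of all V5 promoter peaks held one. The printed matches of Psmd3, Psme3 and Psmg1 lay 138, 116 and 124 bp from the middle of the peak. The AP1 motif TGAGTCA was in none of the 11 and in 13.8% of all. The intervals of the members held the background for each of these motifs, and a match is a description of the letters, not of a bound site.

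Promoter windows of RefSeq on GRCm38.p6, from 250 bp before to 50 bp after the start of a gene, were matched for 42 of the 50 members, 8 of them with V5. TGACGTCA was in 0 of the 42, beside 2.54% of 17492 protein-coding genes. The window of Psmb8 (chr17:34197945-34198244) begins 277 bp downstream of its palindrome, and Psmb2 was not among the 42. TGACG was in 19 of 42, or 45.2% (31.2 to 60.05), beside 26.2% of all protein-coding genes, below that interval, and 37.01% of those with both other peaks, within it. It was in 7 of 8 members with V5 and 12 of 34 without. Among protein-coding genes with both other peaks, TGACG was in 57.8% of windows with V5 and in 28.0% without, and the members thus showed a split of the same direction.

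The same count was made under RNAPOL2 peaks, which members without V5 also have. TGACGTCA lay under the highest RNAPOL2 promoter peak of 2 of the 11 members with V5 and of 0 of the 36 without. In all protein-coding genes with RNAPOL2 the shares were 15.2% with V5 and 1.71% without. TGACG was under 9 of 11 and 24 of 36, beside 85.8% and 56.3%, so the 5-base sequence was common at members without V5.

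The surroundings of the 39 members without a V5 promoter peak were searched for distal V5 peaks. The nearest lay a median of 82.6 kb from a TSS. It lay within 10 kb for 2 of 39, Psma3 (5411 bp, score 67) and Psmc1 (9224 bp, score 142), and within 50 kb for 15, or 38.5% (24.9 to 54.1). For the 36 of these members with both other peaks the counts were again 2 and 15, or 5.56% (1.54 to 18.1) and 41.7% (27.1 to 57.8), and the median was 78.2 kb. Protein-coding genes with both other peaks and no V5 promoter peak had shares of 8.62% and 41.2%, within those intervals, and a median of 65.8 kb. No member had a V5 peak in its gene body outside the promoter windows, where 0 of 50 has a Wilson interval that reaches 7.14% and 7.10% of all protein-coding genes had one.

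Genes that work with the proteasome were examined from lists, of which 4 are given, and all the genes found in the annotation had RNAPOL2 and H3K27ac promoter peaks. By list, V5 was present at 1 of 4 further subunits and assembly factors, 7 of 13 associated enzymes and shuttles, 6 of 9 genes of transcriptional control and 5 of 9 genes of the MHC class I pathway, beside 16.6% of all protein-coding genes and 30.4% of those with both other peaks. Paaf1 and AI314180 were not matched. The lists are short, were chosen with earlier results of these data known, and were not tested against the members.

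The single further subunit with V5 was Adrm1, a ubiquitin receptor of the 19S particle, with a low score of 103. The associated enzymes with V5 were the deubiquitinases Usp14 (338) and Uchl5 (84), the ligase Ube3c (58), the thioredoxin-like Txnl1 (345), the shuttles Rad23b (76) and Ubqln1 (223), and Zfand5 (289), a proteasome-binding zinc finger protein.

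V5 was present at the genes for both factors known to act on proteasome promoters, Nfe2l1 with a score of 94 and Nfe2l2 with 90, at percentiles 25.9 and 23.3 of V5 promoters. The other genes of transcriptional control with V5 were Keap1 (76), the adaptor that marks NFE2L2 for degradation, the small Maf partners Maff (207) and Mafk (344), and the repressor Bach1 (301). In the MHC class I pathway, which uses peptides cut by the proteasome, B2m had 402, H2-K1 185, H2-D1 482 and Irf1 178, and the Tap1 score of 317 is the peak shared with Psmb9.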

How the data were processed

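ChIP-seq was performed on mouse tumours with anti-V5, anti-RNAPOL2 and anti-H3K27ac (4 labelled samples each, with 4 inputs). According to the labels and the study's methods, the authors aligned reads to mm10 with BWA 0.7.10-r789, called peaks with MACS2 2.2.6 against input (broad for H3K27ac), and removed duplicates and denylisted regions. The deposited values are 1 peak score per interval, a whole number, which the study calls a significance score for V5 and whose unit is not stated. Which samples entered each list, and how replicates were pooled for the lists, is not given in the sources used here. The methods describe an averaging of replicates for the enrichment tracks, and they name more V5 and RNAPOL2 samples than the labels. The V5 list is smaller than the total V5 set of the study and as large as the promoter and distal sites of one of its comparisons together. The rule that made this smaller set is not stated. A site that the caller left out of a list cannot be told from an unbound one, and the methods give only an approximate sequencing depth, not the depth that each sample reached.

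TSSs of all transcripts came from GENCODE vM21 and sequence from GRCm38, the assembly that mm10 names. Overlap was at least 1 bp with a window of 3 kb around a TSS, and the gene value was its highest promoter peak. Shares have Wilson 95% intervals, and medians have 95% order-statistic intervals. With 1 list per antibody no p-value was computed. Motifs were searched on both strands. H3K27ac peaks within 12.5 kb were stitched. The functions were tested on simulated data. Python 3.11.15, numpy 2.4.6, scipy 1.17.1, pysam 0.24.0 and matplotlib 3.10.9 were used.

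Members and lists were chosen with earlier results of these data known. The genes named were all members with V5, those without RNAPOL2 or H3K27ac, the 5 highest and 5 lowest in those lists, the inducible and tissue subunits, members that share a window, Psmc3ip, Nfe2l1, Nfe2l2 and related genes with V5. A further list of related genes is not reported here. Other members are named to complete their subcomplex. Alternatives were other windows, TSS sets, overlap rules, a score threshold, peak assignment, gene sets, summed scores and the central 200 bp.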

Additional observations from a re-analysis of the deposited data

How the results depend on the processing

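Of 47 recomputed values, 46 stayed within the interval of the reported one. The exception was the share of members with H3K27ac, which fell from 96% to 86% when each peak was counted for its nearest protein-coding gene alone, a rule that by construction removes peaks shared with a neighbour (Psmb11, Psmb9, Psmc5, Psmd13 and Psmg2). The V5 share was 22% with windows of 1 and 5 kb, 20% with the most upstream TSS alone, and 16% both with the upper 50% of peaks by score, which lost Psma1, Psmd5 and Psmg1, and with the nearest gene alone, which lost Psma7, Psmb1 and Psmb9. Under the score threshold the 7.30% of all protein-coding genes lay outside the interval of the members (8.34 to 28.5). Among genes with both other peaks, the members had 17.4% (9.09 to 30.7) under that threshold, beside 14.2%, and 19.05% (9.98 to 33.3) under the nearest gene rule, beside 28.7%, so the background lay within the interval in both. No paired analysis was possible because each antibody has 1 list and no values per replicate, and replicates could not be left out for the same reason. The lists do not give the depth reached by each sample, and a gene without a peak may hold signal under the threshold of the caller.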

Other observations

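Other sequence elements tied to proteasome genes were counted in the same windows. TGACNNNGC, the core of the antioxidant response element to which NFE2L1 and NFE2L2 bind, was in 6 of the 42 RefSeq promoter windows of members (Psmb5, Psmb6, Psmc6, Psmd12, Psmd9 and Psme4), or 14.3% (6.72 to 27.8), beside 14.8% of all protein-coding genes. It was in 4 of the 11 V5 peaks (Psma1, Psmb2, Psmd3 and Psme4), beside 37.6% of V5 promoter peaks. Its first 4 bases are shared with TGACG, so that 1 stretch can match both. CCAAT was in 7 of the 11 V5 peaks, beside 55.7%, and in 15 of 42 windows, or 35.7% (23.0 to 50.8), beside 42.3%. The GC content of the 11 V5 peaks had a median of 59.9%, beside 62% in V5 promoter peaks.

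Acetylation and transcription beyond the promoters were also counted. Stitched H3K27ac regions of at least 3 peaks held 12 of the 48 members with H3K27ac, or 25% (14.9 to 38.8), beside 25.2% of protein-coding genes, the largest being at Psmc3ip with 8 peaks and at Psmc3 with 6. Regions of at least 10 peaks held 0 of 48, beside 1.82%. Peaks inside the gene body but outside promoter windows were present at 5 of 50 members for RNAPOL2 (Psma2, Psmb7, Psmc1, Psmc3 and Psmc5), beside 11.2%, and at 3 of 50 for H3K27ac (Psma2, Psmc1 and Psmc3), beside 13.8%.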
